A study of Homo sapiens with 27 samples.

Results

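The HOX clusters A to D are the 4 chromosomal blocks that hold the human HOX genes, and they are described here by the positions of O6-methylguanine that O6-MeG-seq marked in them. Members were the autosomal protein-coding genes of the RefSeq table (GRCh38.p14) whose symbol is HOX followed by A, B, C or D and a number, which gave 39 of 19122 genes. Each cluster ran from the start of its first gene to the end of its last gene with 10 kb added on either side. HOXA (11 genes, 127.1 kb) lay at chr7:27082993-27210091. HOXB (10 genes, 220.2 kb) lay at chr17:48518526-48738750. HOXC (9 genes, 137.2 kb) lay at chr12:53928831-54066030, and HOXD (9 genes, 123.4 kb) at chr2:176077487-176200907. Together the clusters covered 607.9 kb and held 24150 marked G positions, summed over all 27 libraries.

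The cells were LN-229, an established human glioblastoma line, either transfected with MGMT, the gene of the protein that repairs O6-methylguanine, or carried as the transfection control, which the labels call WT. Both genotypes received 1 mM temozolomide (TMZ) or 1% DMSO as solvent, either 1 time (1x) or 3 times at 4 h intervals (3x), and DNA was taken 24 h after exposure began. These 8 groups and a ninth of naked genomic DNA that received 1 mM TMZ outside the cell had 3 libraries each; the naked DNA of replicate 1 came from non-transfected WT cells, that of replicate 2 from WT cells and that of replicate 3 from MGMT-transfected cells. All cells of a genotype belonged to a single line, so the replicates measured the spread between exposures of that line.

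HOX genes encode homeodomain transcription factors that give cells their position along the body axis, and within a cluster they lie in the order in which they act from head to tail. In cells that keep them silent, these clusters are textbook targets of Polycomb complexes and carry histone H3 trimethylated at lysine 27, over dense CpG islands. TMZ breaks down in water to a methylating agent that attacks DNA bases, and O6-methylguanine is the product held mainly responsible for its toxicity; MGMT takes the methyl group onto itself. Naked DNA has no chromatin and no repair, so it records which guanines the chemical reaction and the assay mark in bare sequence.

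The guanines marked in HOX promoters show what a single measurement is. RefSeq promoter entries matched 20 of the 39 HOX genes and gave 26 distinct stretches of 250 bases upstream of a start. In these, 261 different guanines of 3853 on both strands were marked in at least 1 TMZ or naked DNA library. Shown here, for each cluster, is the stretch with the most marked guanines among the 15 that lie outside every HOX gene body; stretches inside a gene body were set aside after the files had been seen. Each is written 5′ to 3′ on the strand of its gene, in lower case. Capital G is a marked guanine on that strand, and capital C is a base whose partner guanine on the other strand was marked.
HOXA13, build GRCh38.p14, chr7:27200092-27200341, minus strand: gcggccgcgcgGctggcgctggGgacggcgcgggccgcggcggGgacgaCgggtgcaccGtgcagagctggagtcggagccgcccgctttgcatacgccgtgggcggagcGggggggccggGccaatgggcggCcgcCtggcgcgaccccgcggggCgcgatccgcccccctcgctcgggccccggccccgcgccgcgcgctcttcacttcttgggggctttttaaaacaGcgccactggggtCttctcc
HOXB1, build GRCh38.p14, chr17:48531012-48531261, minus strand: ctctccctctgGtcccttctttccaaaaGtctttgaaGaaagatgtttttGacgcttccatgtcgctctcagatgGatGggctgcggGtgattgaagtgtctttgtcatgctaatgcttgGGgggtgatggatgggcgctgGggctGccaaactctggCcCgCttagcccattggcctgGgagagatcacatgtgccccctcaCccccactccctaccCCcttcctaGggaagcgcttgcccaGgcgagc
HOXC4 and HOXC5, build GRCh38.p14, chr12:54016638-54016887, plus strand: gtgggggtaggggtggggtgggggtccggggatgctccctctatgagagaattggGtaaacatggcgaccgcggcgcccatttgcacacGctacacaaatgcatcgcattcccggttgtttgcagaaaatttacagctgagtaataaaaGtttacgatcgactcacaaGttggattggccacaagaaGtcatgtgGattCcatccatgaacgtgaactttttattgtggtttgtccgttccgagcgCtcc
HOXD1, build GRCh38.p14, chr2:176188418-176188667, plus strand: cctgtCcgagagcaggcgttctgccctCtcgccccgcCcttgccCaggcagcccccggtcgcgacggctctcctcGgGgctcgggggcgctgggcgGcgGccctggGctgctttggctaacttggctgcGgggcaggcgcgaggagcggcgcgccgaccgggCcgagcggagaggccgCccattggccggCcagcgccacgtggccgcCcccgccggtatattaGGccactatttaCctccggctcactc

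HOXA13 patterns the digits and the genital tract, and its stretch had 12 marked guanines of 195, 7 of them on the gene's strand. HOXB1, which specifies a segment of the hindbrain, had 20 marked of 143, with 14 on its own strand, and its stretch was the only candidate in its cluster. The stretch shared by HOXC4 and HOXC5, genes of the neck and upper trunk, had 8 marked of 127 and was likewise the only candidate in its cluster. HOXD1, at the anterior end of HOXD, had 17 marked of 187, divided as 8 and 9 between the strands. Each stretch had marks on both strands, spaced unevenly, with unmarked guanines between them. The capitals pool naked DNA and TMZ cells. Naked DNA marked 6, 9, 3 and 8 different guanines in the order A to D, and TMZ cells 6, 12, 5 and 9. Marked in both were 1 guanine in the HOXB1 stretch and 0 in the others.

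The base before a marked guanine was uneven in these promoters. Of 259 marked guanines with a readable preceding base, 51.35% followed G, 30.12% followed A, 12.36% followed C and 6.178% followed T. Among all 3825 guanines of the same stretches, 35.45% followed G, 19.95% A, 24.63% C and 19.97% T. Guanines after A or G were therefore marked more often (10.22% and 9.808% of them) than guanines after C or T (3.397% and 2.094%), which is a description of pooled libraries with no test.

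HOX promoters took up marks at a rate near that of other promoters. In naked DNA the 26 stretches had 1.53 ± 0.245 sites per 1000 guanines per 1000000 G sites (SD, n = 3), against 1.30 ± 0.138 over all 21040 promoter stretches. In TMZ cells the HOX rate ran from 0.626 to 2.14 with a mean of 1.25 ± 0.422 (SD, n = 12), against 1.077 ± 0.135 for all promoters. In solvent cells it was 0.653 ± 0.820 (SD, n = 12) on 16 sites in all, against 0.723 ± 0.183. The spread between libraries in the HOX stretches covered the value of all promoters in each of these classes. HOX stretches had a median GC content of 58.8%, and all promoter stretches 62%.

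The measure used from here on is the density of a region: the number of different marked G positions per kb per 1000000 marked G positions on the autosomes of the same library. An even spread over the autosomes would give 0.348. Because each library is scaled to its own total, a density compares regions within a library and says nothing of the total number of lesions. Libraries differed widely in depth, from 165195 to 797936 autosomal G positions in solvent cells, 717619 to 5477076 in TMZ cells and 5121979 to 8822222 in naked DNA. The clusters themselves held 59 to 251 G positions in a solvent library, 270 to 2462 in a TMZ library and 2311 to 3722 in a naked DNA library, so single solvent libraries carried the largest counting error. Libraries fell into 5 sets that shared positions at bases other than G, and the sets cut across the groups; results that change within a set are given with it.

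In naked DNA all 4 clusters were marked more densely than the autosomal average. HOXC was the densest, with 0.857, 0.944 and 0.866 in replicates 1 to 3 (mean 0.889 ± 0.0477, SD, n = 3), 2.55-fold over the autosomes. HOXA followed with 0.743, 0.765 and 0.691 (0.733 ± 0.0379), a 2.11-fold excess, and HOXB with 0.668, 0.705 and 0.712 (0.695 ± 0.0236), a 1.997-fold excess. HOXD had the lowest density, 0.509, 0.562 and 0.525 (0.532 ± 0.0270), 1.53-fold over the autosomes. HOXC lay above the other clusters and HOXD below them in each of the 3 libraries, while HOXA and HOXB overlapped. Relative to the 1 Mb on either side of each cluster the order differed: HOXD was 1.77-fold denser than its flanks, HOXA 1.625-fold, HOXC 1.38-fold and HOXB 1.165-fold. Positions at bases other than G, scaled to their own total, kept the first order, with 0.611 in HOXC, 0.568 in HOXA, 0.5465 in HOXB and 0.4245 in HOXD. These levels are descriptions of the clusters, were not adjusted for the number of DNA copies of a region and were not tested against the genome.

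The order of the densities went with GC content only in part. The GC content of a region was estimated from the positions at C, A and T in solvent libraries: 52.44% in HOXA, 48.19% in HOXB, 52.3% in HOXC and 45.61% in HOXD, against a median of 37.98% over autosomal 100 kb windows. Windows of 100 kb within 1 percentage point of a cluster's GC had median naked densities of 0.628 for HOXA (394 windows), 0.558 for HOXB (864), 0.623 for HOXC (409) and 0.491 for HOXD (1337). Each cluster lay above the median of its own windows, and HOXC and HOXB also above the upper quartile, 0.750 and 0.660. HOXA and HOXC were nearly equal in GC and did not overlap in naked density.

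**Figure D1:**
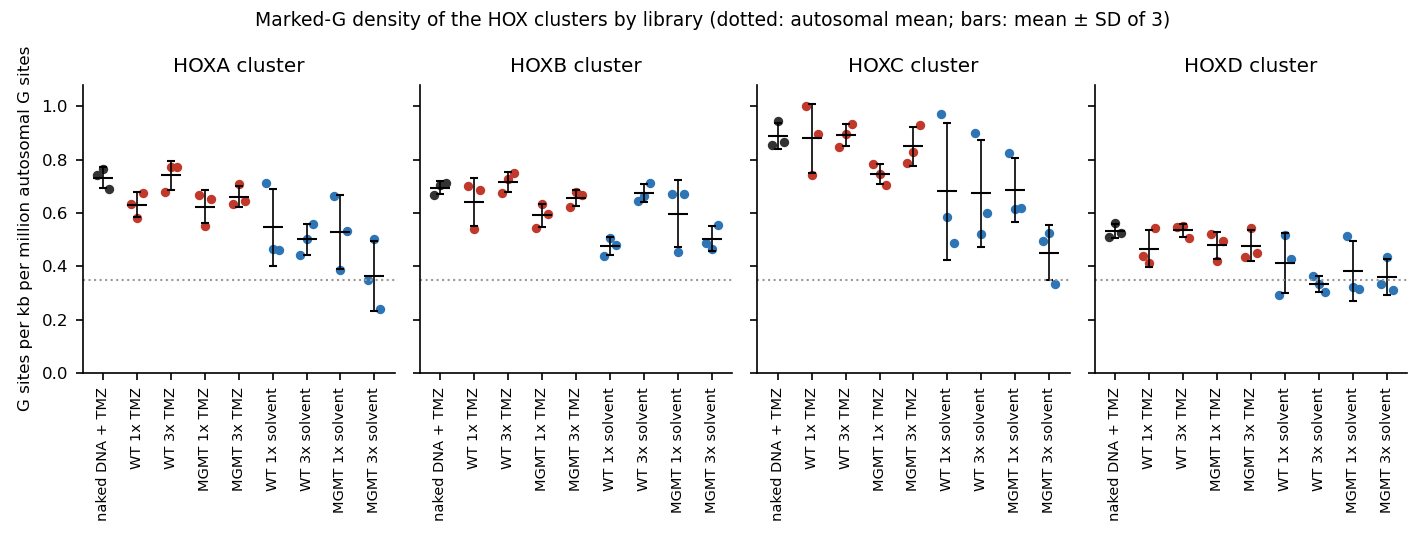
Density of marked G positions in each HOX cluster, in G sites per kb per 1000000 autosomal G sites, with 1 point per library, the mean ± SD of 3 libraries per group as bars, and the autosomal mean of 0.348 as a dotted line. Naked DNA and TMZ cells occupy similar heights in each cluster, in these classes HOXC reaches the highest values and HOXD the lowest, and solvent libraries are mostly lower and more widely spread.

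TMZ cells carried nearly the naked DNA densities. In HOXA the 12 TMZ libraries ran from 0.553 through a median of 0.660 to 0.773 (mean 0.665 ± 0.0654, SD). HOXB ran from 0.539 through 0.672 to 0.749 (0.652 ± 0.0666), and HOXC from 0.707 through 0.839 to 1.00 (0.842 ± 0.0911). HOXD ran from 0.414 through 0.501 to 0.552 (0.489 ± 0.0538). Below every naked DNA library lay 9 of 12 TMZ libraries in HOXA, 5 in HOXB, 7 in HOXC and 7 in HOXD, and above every naked DNA library lay 2, 2, 1 and 0; the others lay within the naked range. Over the 4 clusters as a sum, the mean of TMZ cells was 0.664 ± 0.0576 against 0.714 ± 0.0253 in naked DNA.

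None of these differences passed the test. The fit was limma with voom weights over 26836 features, the 4 clusters and the autosomal 100 kb windows, with Benjamini-Hochberg adjustment over all of them, and a feature was called at an adjusted p of at most 0.05. TMZ cells minus naked DNA gave log2 -0.14 in HOXA (95% interval -0.37 to 0.09, adjusted p = 0.855), -0.10 in HOXB (-0.32 to 0.12, adjusted p = 0.899), -0.08 in HOXC (-0.32 to 0.15, adjusted p = 0.919) and -0.12 in HOXD (-0.34 to 0.10, adjusted p = 0.873). Limma called 0 of 4 clusters and 0% of all features, although 5.83% of features had an unadjusted p below 0.05; no cluster was among these. The 4 estimates were negative, as was the median of windows of like GC in each case (-0.15, -0.10, -0.15 and -0.08 in the order A to D). The sign turned in HOXB (0.0018) and HOXC (0.06) when a smooth GC curve was removed from each library and limma-trend replaced the voom weights, and for the sum of the clusters (0.01) when solvent controls were subtracted. A departure of the size of these intervals, up to about a log2 of -0.37, could not be told from 0 with 3 naked DNA libraries.

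Solvent cells, which show what the assay lists without TMZ, were lower than naked DNA in all 4 clusters in the fit over all libraries. HOXA ran from 0.241 through a median of 0.483 to 0.714, HOXB from 0.440 through 0.532 to 0.714, HOXC from 0.335 through 0.592 to 0.971 and HOXD from 0.294 through 0.334 to 0.518. Below every naked DNA library lay 11 of 12 solvent libraries in HOXA, 9 in HOXB, 10 in HOXC and 10 in HOXD. Summed over the clusters, all 12 lay below the naked range, at 0.391 to 0.672. The log2 difference, solvent minus naked, was -0.65 in HOXA (SE 0.13, adjusted p = 0.000228, limma) and -0.32 in HOXB (SE 0.11, adjusted p = 0.0356, limma). It was -0.59 in HOXC (SE 0.13, adjusted p = 0.000586, limma) and -0.47 in HOXD (SE 0.13, adjusted p = 0.00672, limma). Limma called 4 of 4 clusters lower, where 9.74% of all features were called lower.

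These calls leaned on the weighting and on single replicates. Limma-trend, which gives the libraries equal weight, kept the directions and log2 differences of similar size. It called 0 of 4 clusters lower and 0.939% of all features, and the adjusted p of HOXA was then 0.0509 (limma-trend). Without replicate 2 of every group 1 of 4 clusters was called, and likewise without replicate 3, in both cases HOXA; 1.99% and 1.73% of all features were called lower in these fits. The HOXB call was also lost when any single naked DNA library was left out (log2 -0.34, -0.31 and -0.30 without replicate 1, 2 and 3). Of 16 alternatives run for HOXB, 8 lost the call and 1 turned its sign. Set 1 was the only set with solvent and naked DNA libraries together, and there the summed density differed by a log2 of -0.14, against -0.47 over all libraries. Its solvent libraries had summed densities of 0.5875 (WT 1x) and 0.672 (MGMT 1x), and its naked DNA library 0.694. The MGMT 1x library is the one whose G share stands apart, as given below. In HOXC a solvent library of that set, WT 1x replicate 1, had 0.971 on 22 sites and the naked DNA library 0.857 on 1037. The fit does not include the sets. Windows of like GC had medians of log2 -0.51, -0.36, -0.51 and -0.26 in the order A to D.

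TMZ cells were denser than solvent cells in all 4 clusters. The log2 difference was 0.50 in HOXA (1.42-fold, 95% interval 0.32 to 0.69, adjusted p = 8.2e-05, limma) and 0.51 in HOXC (1.42-fold, 0.33 to 0.68, adjusted p = 3.2e-05, limma). It was 0.35 in HOXD (1.27-fold, 0.15 to 0.54, adjusted p = 0.00827, limma) and smallest in HOXB at 0.22 (1.16-fold, 0.07 to 0.37, adjusted p = 0.031, limma). Limma called 4 of 4 clusters higher, where 8.94% of all features were called higher. The groups overlapped: 9 solvent libraries lay below every TMZ library in HOXA, 6 in HOXB, 9 in HOXC and 8 in HOXD, of 12 each. A TMZ library exceeded the solvent library of the same genotype, exposure and replicate number in 11 of 12 cases in HOXA and HOXD, and in 10 of 12 in HOXB and HOXC.

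The calls for HOXA and HOXC held when any replicate number was left out, with log2 differences of 0.46 to 0.54 and 0.40 to 0.61. The HOXB call was lost without replicate 2 (0.17, adjusted p = 0.29, limma), without replicate 3 (0.24, adjusted p = 0.152, limma) and with limma-trend (0.21, adjusted p = 0.124), under which 4.99% of all features were called higher. Of 17 alternatives run for HOXB, 4 lost the call, these among them, and 1 turned its sign. The HOXD call was lost without replicate 3 (0.27, adjusted p = 0.17, limma). Over all features 3.39% were called higher without replicate 2 and 2.96% without replicate 3. A solvent library of the MGMT 1x group, replicate 1, stood apart with a G share of 43.7% over the autosomes against 19.4% and 19.9% in the other 2 of its group. Without it the differences were 0.54, 0.25, 0.54 and 0.40 and remained called. The WT 1x solvent library of replicate 1 was raised less, at 27.8% against 19.8% and 19.1%. Of the autosomal positions of these WT and MGMT libraries 47.2% and 48.6% had a score of at least 30. In the other solvent libraries it was 68.4% to 85.9%. Set 1 held replicate 1 of the 1x groups and of naked DNA, the MGMT 1x solvent library that stood apart among them. Within it the summed density differed by log2 0.07 between TMZ and solvent cells, against 0.32 in set 2 and 0.43 in set 3. Its WT libraries had summed densities of 0.702 with TMZ and 0.5875 with solvent, and its MGMT libraries 0.619 and 0.672 in the same order.

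The same difference appeared at listed positions whose reference base is not G. TMZ minus solvent cells at A, C and T positions gave log2 0.47 in HOXA (adjusted p = 5.7e-07, limma), 0.32 in HOXB (adjusted p = 3.3e-05), 0.45 in HOXC (adjusted p = 4.1e-07) and 0.26 in HOXD (adjusted p = 0.00644). Limma called 4 of 4 clusters higher there too, where 13.3% of features were called. Solvent minus naked DNA at these bases was -0.64, -0.35, -0.55 and -0.49 in the order A to D, again 4 of 4 called lower, against 17.7% of features. TMZ minus naked DNA at these bases was -0.18, -0.03, -0.10 and -0.24, with 0 of 4 called and 0.818% of features called. G positions and the other positions thus moved in the same direction in all 4 clusters in each of these 3 comparisons.

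Genome windows showed the same contrast in step with their GC content. The median log2 difference between TMZ and solvent cells was -0.20 in windows below 35% GC (6897 windows), -0.08 at 35% to 40% (10200), 0.07 at 40% to 45% (5954), 0.23 at 45% to 50% (2506), 0.36 at 50% to 55% (965) and 0.50 above 55% (308). Across 26830 windows, which share libraries and are not replicates, it correlated with GC at r = 0.66. At bases other than G the correlation was 0.75 over 26777 windows, and for solvent minus naked DNA at G it was -0.73. The GC estimate was itself made from the solvent positions at A, C and T. The difference at bases other than G therefore shares data with the GC it was correlated with. Windows of the clusters' own GC had medians of 0.36 for HOXA, 0.26 for HOXB, 0.36 for HOXC and 0.19 for HOXD. HOXB lay below the median of its windows, and the others above the median, HOXA, HOXC and HOXD also above the upper quartile of 0.48, 0.48 and 0.29. After a smooth GC curve was removed from each library and limma-trend was used in place of voom weights, the differences were 0.15, -0.01, 0.15 and 0.22 in the order A to D, 0 of 4 clusters were called and 0.22% of features were called higher. Limma-trend without the GC curve called 3 of 4 clusters and 4.99% of features. For solvent minus naked DNA both changes together left -0.15, 0.01, -0.09 and -0.28, with 0 of 4 called and 0% of features called lower, and limma-trend without the GC curve had already called 0 of 4.

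**Figure D2:**
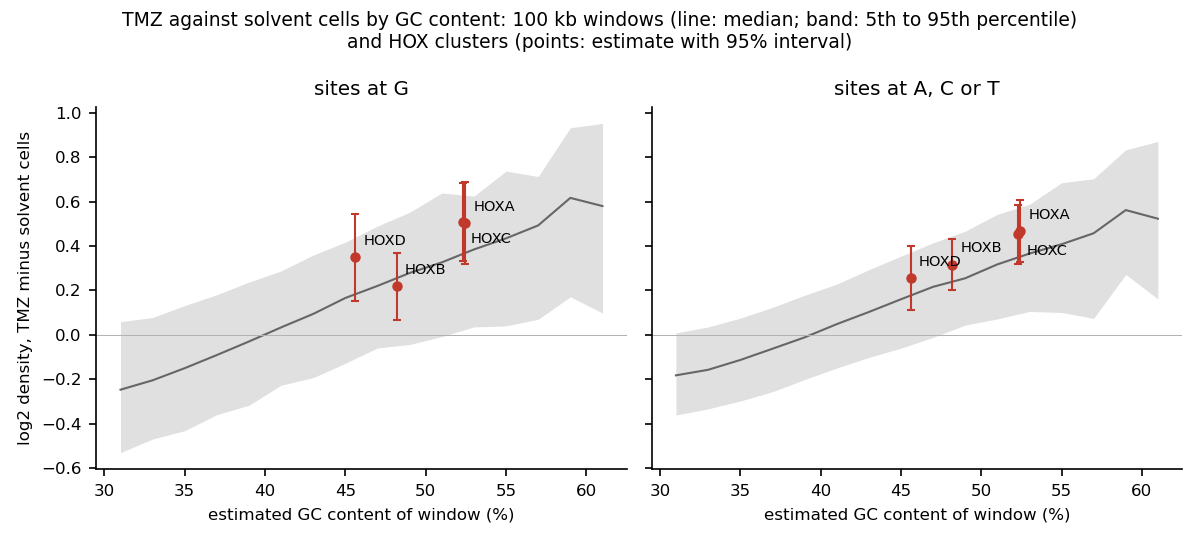
Fitted log2 difference in density between TMZ and solvent cells (vertical axis) against estimated GC content in percent (horizontal axis), at G positions on the left and at A, C or T positions on the right; the line is the median and the band the 5th to 95th percentile of autosomal 100 kb windows, and red points are the HOX clusters with 95% intervals. The median rises with GC from below 0 to above 0.50, and all 4 clusters sit inside the band in both panels. In the right panel both axes use the solvent positions at A, C and T.

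The share of marked positions that are G is the measure closest to the lesion itself, since O6-methylguanine lies at G. In naked DNA it was 78.0%, 74.6% and 69.8% at its highest, middle and lowest library in HOXA, and between 72.1% and 78.7% in the other clusters. Summed over the clusters it was 74.6% ± 1.85 (SD, n = 3), 40.2% to 69.4% with a median of 59.8% in the 12 TMZ libraries and 20.4% to 54.6% with a median of 25.4% in the 12 solvent libraries. The clusters followed the rest of the genome at a somewhat higher level. In TMZ cells the share exceeded the autosomal share of the same library by 6.44, 4.56, 9.05 and 6.96 percentage points on average, in the order A to D. In naked DNA the excess was 5.11, 4.90, 7.41 and 4.595 points. In solvent cells it was 5.06, 4.64, 6.62 and 3.37 points, with SDs of 3.975 to 5.385 (n = 12). An excess was therefore present without TMZ too, and the share was not adjusted for the base composition of the clusters. Relative to the autosomes, the log2 ratio of G to other positions differed between TMZ and solvent cells by -0.10 to 0.10 over the 4 clusters (adjusted p = 0.695 to 0.969, limma), and 0 of 4 were called against 0.127% of features. Between TMZ cells and naked DNA it differed by -0.05 to 0.14 (adjusted p = 0.797 to 0.995, limma), with 0 of 4 called against 0.00747% of features. No cluster gained or lost G among its marked positions, relative to the genome, by an amount that passed the test.

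**Figure D3:**
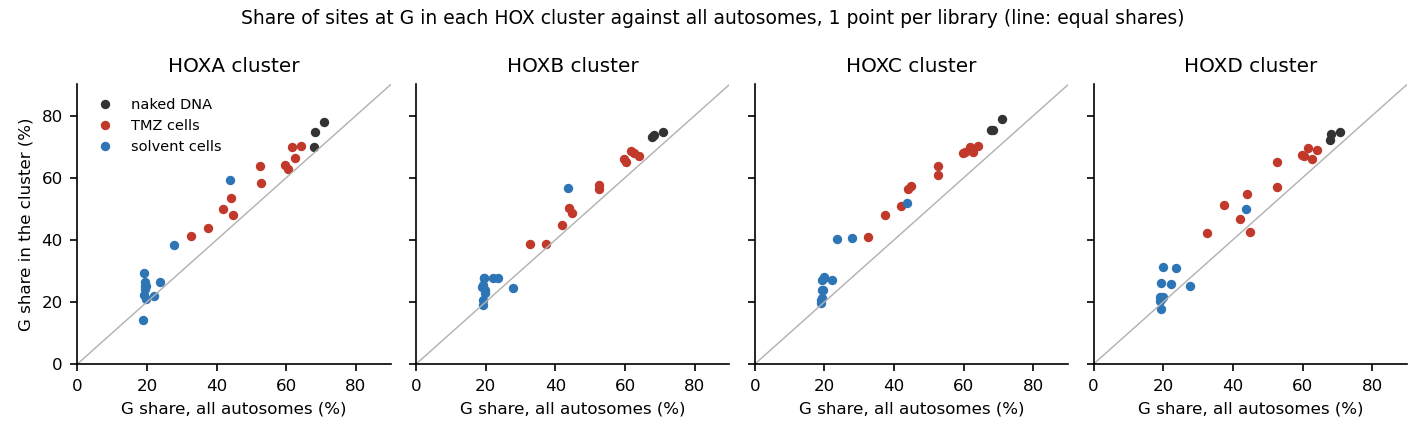
Percentage of marked positions that are G in each HOX cluster (vertical axis) against the same percentage over all autosomes (horizontal axis), with 1 point per library and a line of equal shares. Points of naked DNA, TMZ cells and solvent cells run along the line and mostly a little above it, and the solvent library near 43.7% on the horizontal axis is the MGMT 1x library that stood apart.

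Marks were divided nearly evenly between the strands. In naked DNA the forward strand held 50.9% ± 1.78 of the G positions of HOXA, 51.0% ± 1.23 of HOXB, 49.8% ± 0.183 of HOXC and 50.2% ± 3.57 of HOXD (SD, n = 3). In TMZ cells the means were 49.9%, 48.8%, 51.1% and 52.4% in the same order (n = 12). The log2 ratio of forward to reverse positions in TMZ cells differed from naked DNA by -0.14 to 0.11 (adjusted p = 0.792 to 0.964, limma), with 0 of 4 called against 0.00375% of features. Against solvent cells it differed by -0.13 to 0.12, with 0 of 4 called against 0.0225% of features.

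No cluster passed the test between genotypes in its density of marked G. Summed over the clusters under TMZ, WT 1x libraries had 0.702, 0.569 and 0.702, and MGMT 1x libraries 0.619, 0.599 and 0.612. WT 3x libraries had 0.689, 0.739 and 0.746, and MGMT 3x libraries 0.625, 0.692 and 0.679. MGMT libraries lay below the WT library of the same exposure and number in 5 of 6 cases, while the ranges of the genotypes overlapped at each exposure number. MGMT minus WT under TMZ was log2 -0.09 in HOXA, -0.11 in HOXB, -0.15 in HOXC and -0.07 in HOXD (adjusted p = 0.711, 0.559, 0.462 and 0.787, limma), and 0 of 4 clusters were called against 13.5% of features. At bases other than G the HOXA difference was -0.25 and was called (adjusted p = 0.0393, limma), 1 of 4 clusters against 19.1% of features.

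The 3x libraries were slightly denser than the 1x libraries, without passing the test. The log2 difference under TMZ was 0.15 in HOXA, 0.16 in HOXB, 0.11 in HOXC and 0.09 in HOXD (adjusted p = 0.617, 0.577, 0.754 and 0.794, limma), with 0 of 4 called against 0.00373% of features. The sign turned in HOXD without replicate 2 (-0.06), and in HOXA (-0.02) and HOXC (-0.07) when the GC curve was removed and limma-trend used, so HOXB alone kept its direction under all alternatives run. The response to TMZ over solvent did not differ by a called amount between genotypes (-0.06 to 0.11, adjusted p = 0.985 to 0.996, limma; 0 of 4 clusters and 0% of features). Nor did it between exposure numbers (0.04 to 0.32, adjusted p = 0.612 to 0.958, limma; 0 of 4 clusters and 0% of features). For the genotypes the 95% intervals of these differences reached from -0.41 to 0.47 over the clusters, so a change of response of that size was not detectable.

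Within the clusters the marks were uneven at a scale of 5 kb. All 120 windows of 5 kb passed the filter of at least 10 sites in at least 3 libraries. Their mean naked densities ran from 0.314 to 1.33 around a median of 0.712, a 4.22-fold span, and 116 of 120 exceeded the autosomal mean. HOXC had the narrowest span, 1.91-fold, and HOXB the widest, 3.94-fold. Within HOXA, HOXB, HOXC and HOXD the log2 densities of naked DNA and TMZ cells correlated across windows at r = 0.81, 0.81, 0.67 and 0.63, and over all 120 windows at 0.85. The densities of naked DNA and solvent cells, taken without log2, correlated at 0.69, 0.03, 0.18 and 0.51 within the clusters and at 0.43 over all. The windows share libraries and base composition, the solvent values rest on few sites and the scales differ. The correlations of TMZ and solvent cells therefore cannot be compared.

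**Figure D4:**
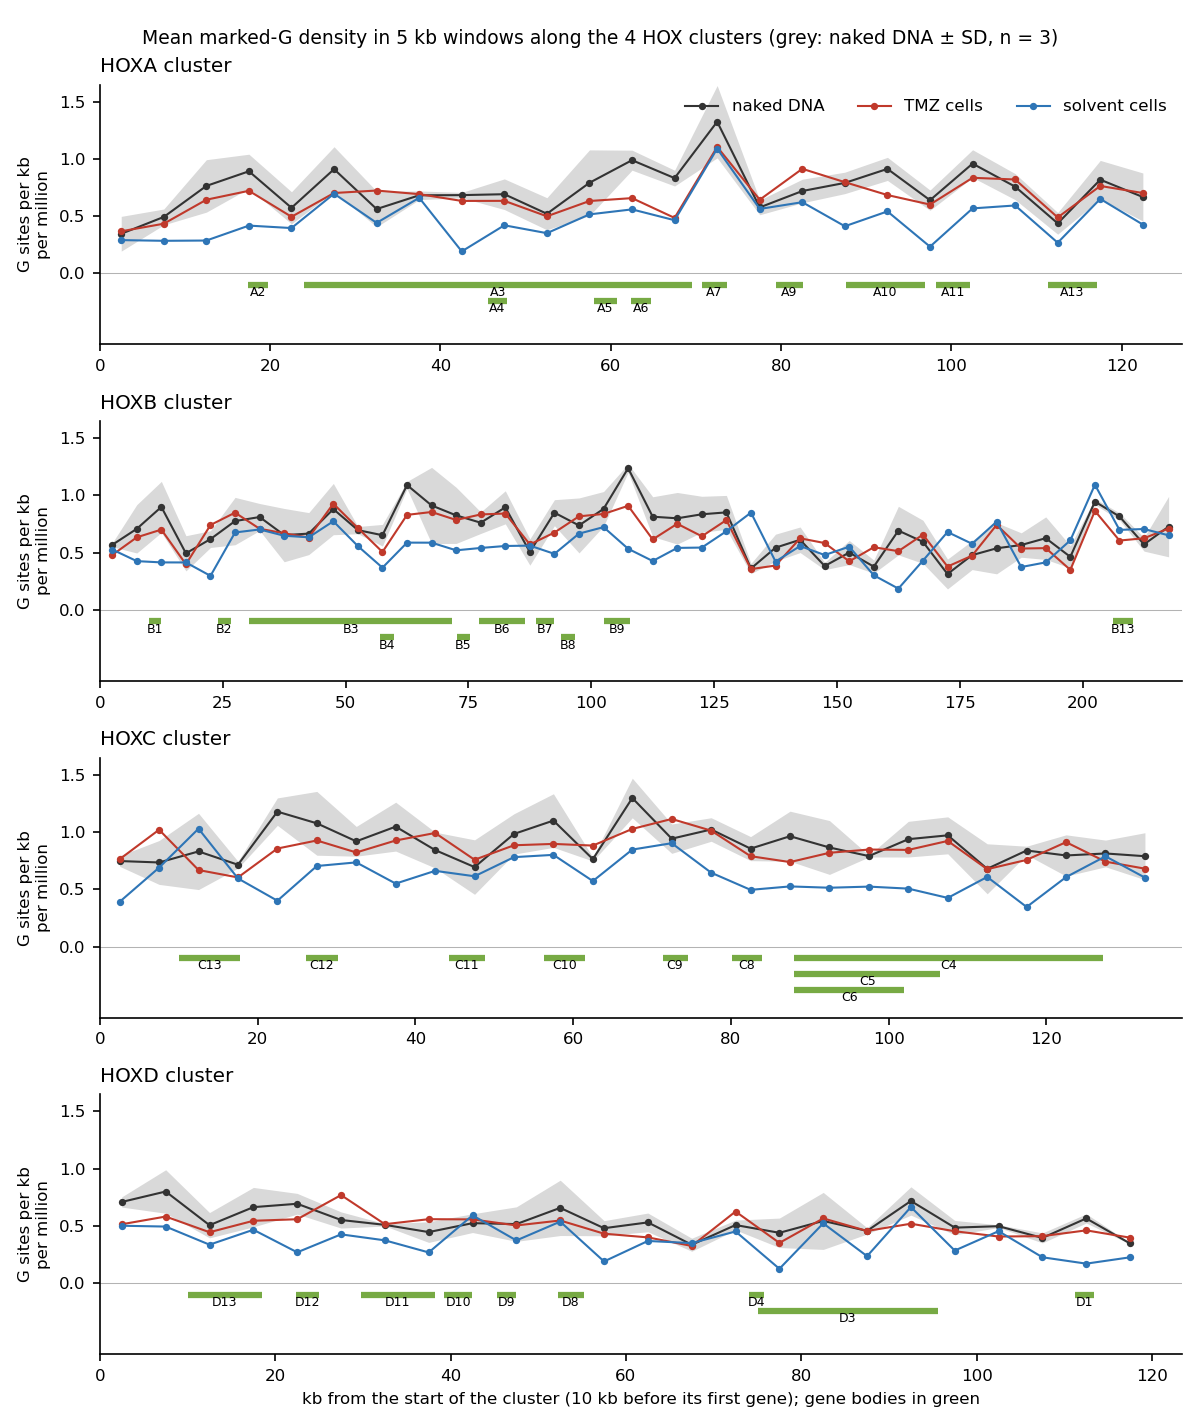
Mean density of marked G positions in 5 kb windows (vertical axis, G sites per kb per 1000000) along each HOX cluster (horizontal axis, kb from the cluster's start), for naked DNA with its SD in grey (n = 3), TMZ cells and solvent cells, with the bodies of 38 HOX genes in green. The naked and TMZ lines rise and fall together, with peaks over HOXA7 and HOXB9, and HOXD has the lowest median window. Over HOXA7 the solvent mean, 1.09, is close to the TMZ mean, 1.105.

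Peaks of naked DNA lay over different features in each cluster. In HOXA the window with the most sites, chr7:27152993-27157992, held HOXA7, a gene of the trunk region, and had 1.22, 1.68 and 1.07 (1.33 ± 0.316, SD, n = 3). In HOXB it was chr17:48623526-48628525 over HOXB9, which acts in the thoracic region, with 1.22, 1.21 and 1.28 (1.24 ± 0.0366). The HOXC peak, chr12:53993831-53998830, held no coding HOX gene but the annotated antisense transcript HOXC-AS2, with 1.11, 1.33 and 1.45 (1.30 ± 0.173). The HOXD peak, chr2:176082487-176087486, lay outside the HOX genes and overlapped one end of EVX2, a homeobox gene at the cluster's posterior end, with 0.657, 1.01 and 0.726 (0.800 ± 0.190). The HOXB peak was the tightest of the 4 across libraries, and the HOXA and HOXD peaks each owed part of their height to replicate 2. In the HOXA peak TMZ cells had 1.105 ± 0.414 and solvent cells 1.09 ± 0.591 (SD, n = 12 each), the latter on 30 sites. That peak was therefore present without TMZ too. In the HOXB, HOXC and HOXD peaks TMZ cells had means of 0.910, 1.03 and 0.581, and solvent cells 0.535, 0.847 and 0.4935.

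The sparsest windows lay mostly outside the HOX genes. They were taken by the number of naked DNA sites over the 3 libraries. In HOXB the sparsest was chr17:48688526-48693525 in the long gap between HOXB9 and HOXB13, with 0.314 ± 0.130. In HOXC it was chr12:53973831-53978830, which overlaps HOXC11 and HOTAIR, a long noncoding RNA, with 67 sites and 0.694 ± 0.238; by mean density a window within HOXC4 was lower, with 70 sites and 0.679 ± 0.218. In HOXD chr2:176142487-176147486, free of genes, had 0.335 ± 0.0568; another HOXD window shared its count of 34 sites.

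Windows with a HOX gene were the denser ones in HOXA and HOXB but not in HOXC, and differed little in HOXD. The median naked density was 0.763 in the 78 windows that touch a HOX gene and 0.620 in the 42 that do not. It was 0.764 against 0.58 in HOXA, where 4 windows touch no HOX gene, 0.812 against 0.569 in HOXB, 0.842 against 1.00 in HOXC and 0.515 against 0.497 in HOXD. Taken by gene bodies within each library, the log2 ratio of genes to the rest of the cluster in naked DNA was 0.17 ± 0.15 in HOXA, 0.46 ± 0.06 in HOXB, -0.03 ± 0.04 in HOXC and 0.14 ± 0.07 in HOXD (SD, n = 3). TMZ cells had 0.12, 0.33, -0.05 and 0.16 in the same order, and in HOXB 10 of 12 TMZ libraries were above 0. Solvent cells had 0.01, -0.08, 0.07 and -0.19, with SDs of 0.56 to 0.71 that exceeded every mean.

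No 5 kb window of the clusters differed between TMZ cells and naked DNA by limma's test. Of 120 windows, 0 were called, against 0.000313% of the 319852 windows tested, and 8 had an unadjusted p below 0.05, against 7.34% of all windows. The fitted log2 difference had a median of -0.10, ran from -0.74 to 0.55, and was negative in 77 windows; over all windows tested the median was -0.02 and 47.5% were positive. The lowest, -0.74 (SE 0.26, adjusted p = 0.502, limma), lay at chr7:27147993-27152992 between HOXA6 and HOXA7 and within the annotated span of HOXA3, where naked DNA had 0.839, 0.898 and 0.761 and TMZ cells 0.212 to 1.00 with a median of 0.414. There 9 of 12 TMZ libraries lay below every naked library, so a difference of this size in 1 window did not pass the test, and 0 calls does not show that the windows were alike. The highest, 0.55 (SE 0.30, adjusted p = 0.702, limma), lay at chr17:48673526-48678525 within LINC02086, where naked DNA had 0.408, 0.312 and 0.415 and TMZ cells 0.341 to 0.836 with a median of 0.488. There 9 of 12 TMZ libraries lay above every naked library.

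The extreme windows of the other comparisons within clusters were of similar size. In HOXA the highest ratio was 0.38 at chr7:27112993-27117992 in HOXA3, and in HOXB the lowest was -0.70 in the HOXB9 window described above. In HOXC the ratio was 0.42 at chr12:53933831-53938830, which overlaps HOXC13-AS, and -0.60 at chr12:53948831-53953830, between HOXC13 and HOXC12. In HOXD it was 0.51 at chr2:176102487-176107486, almost wholly between HOXD12 and HOXD11, where 10 of 12 TMZ libraries exceeded every naked library, and -0.56 in the EVX2 window. Adjusted p-values of these 6 windows were 0.488 to 0.795 (limma). The windows of lowest ratio in HOXB and HOXD were also those with the most sites in naked DNA, which enter both measures.

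Gene by gene, each HOX gene was taken with 2 kb on either side, and all 39 passed the filter among 18223 genes tested. Mean naked densities ran from 0.394 ± 0.0394 at HOXD4 to 1.18 ± 0.207 at HOXA7 (SD, n = 3). At HOXA7 TMZ cells had 0.996 ± 0.384 and solvent cells 1.07 ± 0.646 (SD, n = 12 each). The 8 genes with the lowest naked means were all HOXD genes, and HOXC genes filled much of the upper end, with HOXC12 at 1.06, HOXC9 at 1.05 and HOXC10 at 1.01. Neighbouring values in this order mostly differed by less than their SDs. Gene spans in a cluster overlap in part, and some lie wholly within another. HOXC4 (43.1 kb with its margins), HOXC5 (22.5 kb) and HOXC6 (17.9 kb) share their annotated start, so the sites of a shorter one are counted again in the longer. HOXA4, HOXA5 and HOXA6 lie within HOXA3, and HOXB4 lies within HOXB3. Counts of HOX genes are therefore not counts of separate regions.

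By paralogue group, which runs from 1 at the head end to 13 at the tail end, the anterior genes (groups 1 to 3) had group medians of 0.694, 0.834 and 0.732 in naked DNA. The central groups 4 to 8 had 0.676, 0.911, 0.838, 0.921 and 0.785. The posterior groups 9 to 13 had 0.859, 0.772, 0.804, 0.815 and 0.700. Naked density showed no steady course along the axis, and in the groups that have a HOXD member that member was the lowest, as in group 4, where HOXD4 had 0.394 and HOXC4 0.854. In TMZ cells the group medians ran from 0.581 (group 1) to 0.883 (group 9), and in solvent cells from 0.256 (group 1) to 0.831 (group 7).

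No HOX gene differed between TMZ cells and naked DNA by the adjusted test. Limma called 0 of 39, against 0.691% of all genes, and 3 had an unadjusted p below 0.05, against 13.1% of all genes. The fitted log2 difference was negative in 31 of 39 with a median of -0.10, against a median of -0.03 over all genes tested, of which 42.8% were positive. The members at either end in each cluster show how the libraries were placed.

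In HOXA the lowest difference was that of HOXA6, a gene of the trunk, at -0.76 (SE 0.29, adjusted p = 0.215, limma). Its naked densities were 0.906, 0.796 and 0.813, and its TMZ densities ran from 0.0835 through a median of 0.554 to 1.31, with 9 of 12 below every naked library. The highest was that of HOXA9, a regulator of blood stem cells, at 0.35 (SE 0.21, adjusted p = 0.494, limma). Its naked densities were 0.814, 0.550 and 0.658, and its TMZ densities ran from 0.509 through 0.848 to 1.30, with 7 of 12 above every naked library. Neither gene separated the groups, and at the lowest TMZ density HOXA6 had 1 site and HOXA9 had 3.

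In HOXB the lowest was HOXB1 at -0.42 (SE 0.23, adjusted p = 0.446, limma). It had 1.07, 0.753 and 1.15 in naked DNA and 0.178 through 0.783 to 1.504 in TMZ cells, 5 of 12 of them below every naked library. The highest was HOXB2, which acts in the hindbrain, at 0.16 (SE 0.21, adjusted p = 0.788, limma). It had 0.685, 1.06 and 0.857 in naked DNA and 0.578 through 0.934 to 1.51 in TMZ cells; its sign turned to -0.11 without replicate 1 and to -0.14 without set 1.

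In HOXC the lowest was HOXC12, at the posterior end, at -0.45 (SE 0.20, adjusted p = 0.329, limma). It had 1.084, 1.26 and 0.837 in naked DNA and 0.346 through 0.805 to 1.32 in TMZ cells, with 6 of 12 below every naked library. The highest was HOXC9, which acts in the thoracic region, at 0.25 (SE 0.18, adjusted p = 0.58, limma). It had 0.806, 1.197 and 1.13 in naked DNA and 0.803 through 1.197 to 1.43 in TMZ cells, 6 of 12 above every naked library; without replicate 1 the difference was -0.02.

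In HOXD the lowest was HOXD8 at -0.32 (SE 0.27, adjusted p = 0.654, limma). It had 0.568, 0.782 and 0.371 in naked DNA and 0 through 0.473 to 0.722 in TMZ cells, with no TMZ library above the naked range. The highest was HOXD11, a gene of the forearm and the kidney, at 0.32 (SE 0.17, adjusted p = 0.433, limma). It had 0.549, 0.520 and 0.474 in naked DNA and 0.399 through 0.652 to 0.782 in TMZ cells, with 10 of 12 above every naked library and 2 below. HOXD11 did not pass the adjusted test. For this gene and the other named genes and windows, the naked range rests on 3 libraries. The share of all genes or windows with a like placement of TMZ libraries was not counted.

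**Figure D5:**
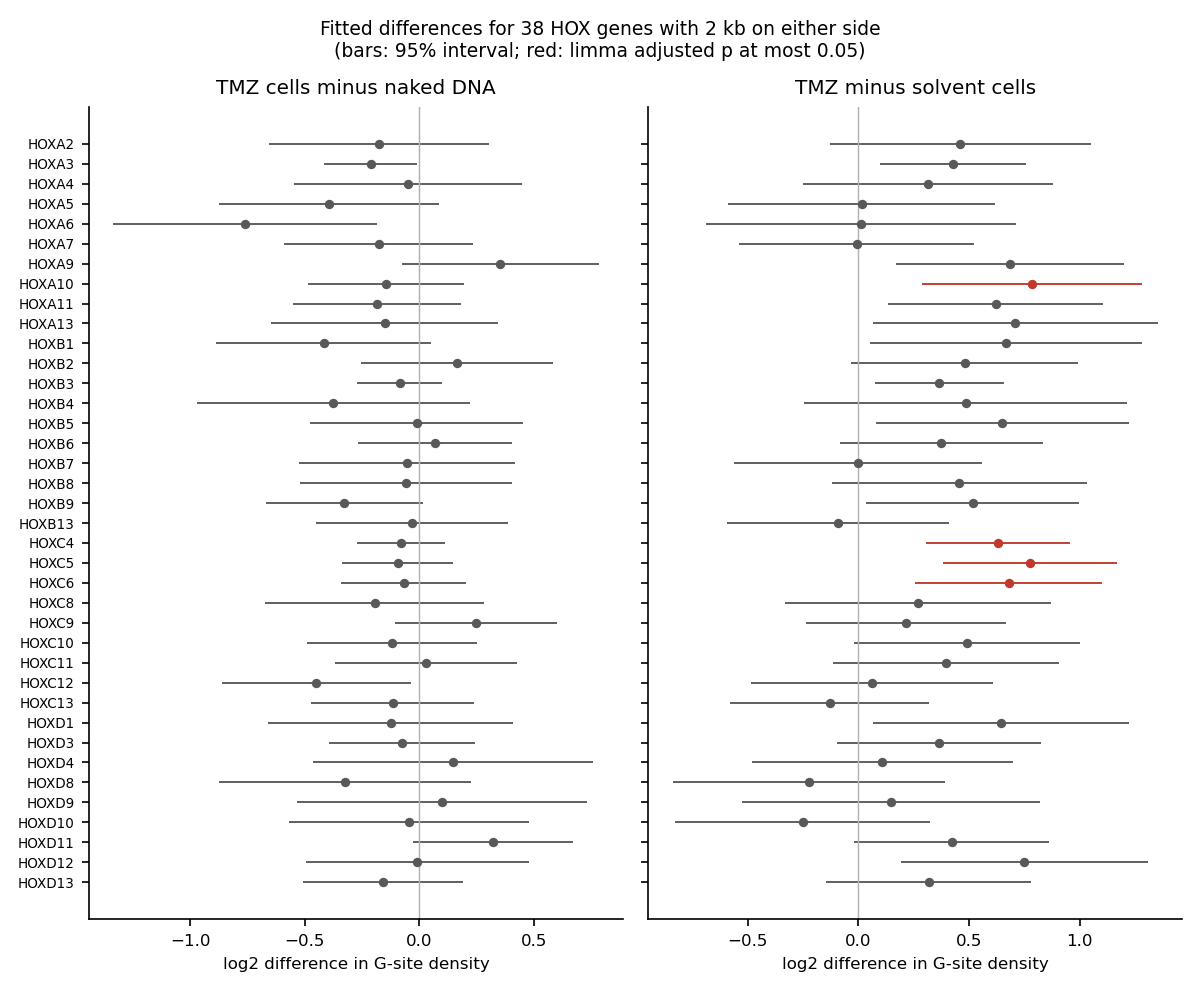
Fitted log2 difference in density of 38 HOX genes with 2 kb on either side, TMZ cells minus naked DNA on the left and TMZ minus solvent cells on the right, with 95% intervals; red marks genes called by limma. No gene is red on the left, and HOXA10, HOXC4, HOXC5 and HOXC6 are red on the right.

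Against solvent cells, 4 HOX genes were higher in TMZ cells. HOXA10, which acts in the uterus and the lumbar region, had naked densities of 0.829, 0.795 and 0.691, TMZ densities of 0.315 to 1.01 with a median of 0.714, and solvent densities of 0 to 0.777 with a median of 0.363. Its log2 difference was 0.78 (SE 0.25, adjusted p = 0.029, limma), with 4 solvent libraries below every TMZ library and 3 TMZ libraries above every solvent library. HOXC4 had 0.570 to 1.01 in TMZ cells (median 0.824) and 0.266 to 1.10 in solvent cells (median 0.527), a log2 difference of 0.63 (SE 0.16, adjusted p = 0.00746, limma). HOXC5 had 0.640 to 1.07 (median 0.815) against 0.248 to 1.06 (median 0.414), a difference of 0.77 (SE 0.20, adjusted p = 0.00699, limma). HOXC6 had 0.644 to 1.01 (median 0.834) against 0.187 to 1.18 (median 0.470), a difference of 0.68 (SE 0.21, adjusted p = 0.0264, limma). In the 3 HOXC genes 9 to 10 of 12 solvent libraries lay below every TMZ library, and the remaining 2 or 3 lay within the TMZ range or above it.

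The count of 4 of 39 was close in proportion to the 11.2% of all genes called higher, and is no result about HOX genes. The median log2 difference was 0.42 over the 39 HOX genes and 0.13 over all genes tested, and 33 of 39 were positive against 66.3% of all genes. The call was lost for all 4 genes without replicate 2 (HOXA10 1.02, HOXC4 0.63, HOXC5 0.73, HOXC6 0.51) and without replicate 3 (0.32, 0.45, 0.53 and 0.50), and 0 HOX genes were called in either case, against 1.41% and 2.84% of all genes. Without replicate 1, 6 HOX genes were called, against 10.1% of all genes. With 5 kb on either side 9 HOX genes were called, against 13.4% of genes, and with sites of any score 10, against 18.3%. GC content, which moves with this contrast in windows, was not entered in the gene fit, and its part in these 4 calls was not tested.

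Solvent cells were lower than naked DNA at 11 of 39 HOX genes, against 21.3% of all genes called lower. Among the lower genes were HOXA3, HOXA10, HOXA11 and HOXA13, HOXB1, HOXB3 and HOXB9, and HOXC4, HOXC5 and HOXC6. None lay in HOXD, though HOXD12 (log2 -0.76, adjusted p = 0.0523, limma) and HOXD1 (-0.77, adjusted p = 0.0617, limma) came near the threshold, on 9 and 6 solvent sites. HOXB1 had the largest difference, log2 -1.08 (SE 0.31, adjusted p = 0.0078, limma), with 4 solvent libraries at 0 and 14 sites over all 12. The median over the 39 was -0.48, against -0.17 over all genes, and 12 were called without replicate 1, 2 without replicate 2 and 7 without replicate 3, against 21.4%, 4.57% and 14.4% of all genes. With 5 kb on either side 20 were called lower, against 23.7% of genes. Between genotypes under TMZ 0 of 39 were called (5.96% of all genes), and between exposure numbers 0 of 39 (0% of all genes). Differences of response between genotypes or exposure numbers were called at 0 of 39 HOX genes and 0% of all genes, with 3 unadjusted p-values below 0.05 in each, against 4.15% of all genes for genotypes and 7.49% for exposure numbers.

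Genes that work with the HOX proteins or regulate them were measured in the same fit, by lists drawn up by function. Of the TALE cofactors (PBX, MEIS and PKNOX proteins, which bind DNA together with HOX proteins), 2 of 9 were higher in TMZ than in solvent cells and 2 lower in solvent cells than in naked DNA. Of the HOX-linked and ParaHox genes, relatives of the clusters such as EVX1 and CDX2, 1 of 12 was higher over solvent and 4 lower in solvent than in naked DNA. Of the Polycomb and Trithorax regulators, which set and counter the silent state of the clusters, 2 of 19 were higher and 7 lower. Of 38 other developmental transcription factor genes with wide CpG islands, 6 were higher over solvent and 16 lower in solvent than in naked DNA. Over all genes 11.2% were higher over solvent and 21.3% lower in solvent than in naked DNA. In each of the 4 lists 0 genes were called between TMZ cells and naked DNA, against 0.691% of all genes. In the genotype comparison under TMZ, 3 of 9 TALE cofactors were called, each higher with MGMT, with 0 of 12 ParaHox-list genes, 1 of 19 regulators and 3 of 38 developmental genes, against 5.96% of all genes. The median log2 difference of the TALE cofactors was -0.04. The response to TMZ over solvent was called different between genotypes at 0 genes of each list and 0% of all genes. These densities were not adjusted for the number of DNA copies of a gene.

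The developmental transcription factor genes had medians close to those of the HOX genes. Their median log2 difference was 0.31 for TMZ minus solvent cells, -0.45 for solvent minus naked DNA and -0.15 for TMZ minus naked DNA. The HOX genes had 0.42, -0.48 and -0.10 in the same comparisons, and all genes tested had 0.13, -0.17 and -0.03. The ParaHox list had 0.32, -0.49 and -0.20, while the TALE cofactors had 0.16, -0.01 and 0.01.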

How the data were processed

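The 27 O6-MeG-seq libraries (9 groups, each with 3) came from cells or from naked DNA. Per the labels' protocols, sheared DNA was joined to adapters, O6-methylguanine was enriched by immunoprecipitation, and a stalling polymerase marked its place. The submitters' processing notes name Trimmomatic 0.38 and 0.39, cutadapt, Bowtie2 2.3.5.1, GATK 4.2.0.0, SAMtools 1.12, bedtools 2.29.2 and build GRCh38, without their order. The deposited files list positions with strand, base and a score in whole numbers from 0 to 42; what the authors' score stands for is not given in the sources used here, and it is no read number. Each line was 1 position, so depth per position is unknown.

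Autosomal G positions with a score of at least 30 were counted per cluster, 100 kb window, 5 kb window counted from the cluster's start, and gene with 2 kb on either side. Features with at least 10 positions in at least 3 libraries were tested with limma 3.58.1 in R 4.3.3 across all features. Voom weights and a prior of 0.5 were used on log2 counts per 1000000 autosomal G positions, in 9 groups without covariates; the 5 kb windows used TMZ and naked DNA libraries only. Ratios of G to other bases and of strands were fitted with precision weights. The procedure was tested on simulated data. Of upstream bases checked against RefSeq, 16136 of 16136 positions agreed in base. Named were all members called, each cluster's members with the highest and lowest ratio of TMZ cells to naked DNA, and its windows with the most and fewest naked positions or extreme ratios, except 1 gene and the window beside it, which are not reported here. Members, lists and rules were chosen with earlier results of these data known. Alternatives covered the score, scaling, weights, GC, window size, margins, filter, replicates and sets of libraries.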

Additional observations from a re-analysis of the deposited data

How the results depend on the processing

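Of 666 alternatives over 64 results, 603 were classed as the same, 44 as weaker, 5 as stronger, 11 as turned in sign and 3 as moved. For a single cluster or gene, the same meant an unchanged direction and side of the threshold. For a count of calls it meant a number close to the main one, so single calls could be lost within it. For a summed density it meant a move smaller than the spread between libraries. The causes of the changes were not tested. Removing the GC curve with limma-trend gave TMZ minus solvent 0.152 (HOXA), -0.00684 (HOXB), 0.146 (HOXC) and 0.223 (HOXD) with 0 called, solvent minus naked DNA -0.154, 0.00859, -0.0885 and -0.277 with 0 called, TMZ minus naked DNA 0.00175 in HOXB and 0.0572 in HOXC, and 3 against 1 exposure -0.0181 in HOXA and -0.0650 in HOXC. Limma-trend alone gave TMZ minus solvent 0.214 in HOXB, and solvent minus naked DNA -0.617, -0.310, -0.546 and -0.498 with 0 called. With 50 kb windows HOXB gave 0.220 and -0.318, and with sites of any score -0.438 for solvent minus naked DNA. At other bases MGMT minus WT gave -0.248 in HOXA, 1 called. Leaving out replicates, TMZ minus solvent ranged from 0.169 to 0.253 in HOXB and from 0.274 to 0.406 in HOXD, with 2 to 4 clusters called. Solvent minus naked DNA ranged from -0.362 to -0.246 in HOXB, -0.734 to -0.490 in HOXC and -0.514 to -0.424 in HOXD, with 1 to 4 called, and 3 against 1 exposure from -0.0584 to 0.206 in HOXD. HOX genes called over solvent were 9 with 5 kb margins (13.4% of all genes), 10 at any score (18.3%) and 0 to 6 without a replicate (1.41% to 10.1%). Lower in solvent than naked DNA were 20 with 5 kb margins (23.7% of all genes) and 2 to 12 without a replicate (4.57% to 21.4%). TMZ minus naked DNA ranged from -0.113 to 0.280 in HOXB2 and -0.0199 to 0.385 in HOXC9 without a replicate, and was -0.141 and -0.00126 without set 1. Within set 1, which holds the MGMT 1x solvent library that stood apart, the summed density gave 0.0687 (TMZ minus solvent) and -0.143 (solvent minus naked DNA). At any score 3 against 1 exposure gave 0.285. Replicate numbers were not treated as pairs: same-numbered libraries correlated above 0.1 in 6 of 12 MGMT and WT pairs and in 6 of 12 TMZ and solvent pairs. Over 2660 genome bins these correlations were 0.41 to 0.66 in 1x replicates 1 and 2. They were -0.02 to 0.09 in 1x replicate 3 and -0.08 to 0.48 in the 3x libraries. The main fit left this dependence out. With the replicate number within each exposure number as a block, TMZ minus solvent was 0.482, 0.213, 0.477 and 0.354 and no call changed. Because this block is nested in the exposure number, it gave no value for 3 against 1 exposure. The block also did not match the sets: the 3x TMZ libraries of replicate 3 lay in set 3 and their solvent libraries in set 4. Depth limits the solvent values, whose clusters held 59 to 251 G positions in a library.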

Other observations

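Subtracting from each TMZ library the solvent library of the same genotype, exposure and number, scaled by the positions at other bases, left summed HOX densities of 0.595 to 0.805 in 11 TMZ libraries, against 0.714 ± 0.0253 (SD, n = 3) in naked DNA. The difference from naked DNA was then log2 0.01, where it was -0.11 without subtraction. MGMT 1x replicate 1 had no value, because 130.1% of its autosomal G positions would have been subtracted. Scaled to the 1 Mb on either side of each cluster, the 4 clusters were 1.43-fold denser than their flanks in naked DNA (± 0.0342, SD, n = 3), 1.36-fold in TMZ cells (± 0.0758, n = 12) and 1.11-fold in solvent cells (± 0.144, n = 12).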
